A study of Mus musculus with 11 samples.

Results

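ATP-binding cassette (ABC) genes were examined in RNA from sorted hepatic sinusoidal endothelial cells (ECs) of mice with and without a gut microbiota. They were taken as all genes of the count table whose symbol is Abc, a subfamily letter from a to g and a number, with or without a closing letter. This gave 50 of 29307 listed genes, and 33 of the 50 had enough counts to be tested. The libraries came from 6 conventionally raised (CONV-R) and 5 germ-free (GF) male C57BL/6J mice aged 10 to 12 weeks, 1 library per mouse. GF mice lived in sterile film isolators, CONV-R mice were specific-pathogen-free animals of the same colonies, and all received the same diet. The labels name no transgene and no drug. ECs were enriched with magnetic beads against CD146 and sorted as CD31+, CD105+ and CD146+ cells. RNA was amplified from 20 ng per mouse before sequencing, and the study describes fewer sorted cells from GF livers and a low viability of the sorted cells.

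ABC proteins use ATP to move molecules across membranes. Members of subfamilies B, C and G export drugs, bile salts, lipids and conjugated metabolites, and several subfamily A members move sterols and phospholipids. Subfamilies E and F have lost the membrane part and act on the ribosome. In the liver the family is best known from the bile-facing membrane of hepatocytes. *Abcg2*, the breast cancer resistance protein, works as a homodimer that exports drugs, urate, porphyrins and sulfated conjugates, and it is also known from the endothelium of the blood-brain barrier. *Abca1* hands cellular cholesterol and phospholipid to apolipoprotein A-I.

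In GF ECs, *Abcg2* and *Abca1* were higher than in CONV-R ECs, and so were the weakly expressed *Abca5* and *Abcb1a*. The bases just before the annotated transcription starts of these 4 genes are shown because they are the members that differed between the groups. They are 250 bases upstream of RefSeq starts on GRCm38, written 5′ to 3′ on the strand of the gene. *Abcg2* has 3 annotated starts spread over 56013 bases, whereas the other 3 genes have 1 window each. Capitals mark the letters of a GC box (GGGCGG), an E-box (CACGTG), a xenobiotic response core (GCGTG) or a steroid receptor repeat (ACANNNTGT), each searched on both strands. The letters of GCGTG can share bases with a GC box.
Abcg2 start 1, chr6:58584283-58584532, plus strand: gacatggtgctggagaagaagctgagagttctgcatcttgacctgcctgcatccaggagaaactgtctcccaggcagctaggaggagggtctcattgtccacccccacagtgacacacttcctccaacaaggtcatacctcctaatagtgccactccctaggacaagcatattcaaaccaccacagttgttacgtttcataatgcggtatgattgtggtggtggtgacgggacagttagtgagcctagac
Abcg2 start 2, chr6:58596422-58596671, plus strand: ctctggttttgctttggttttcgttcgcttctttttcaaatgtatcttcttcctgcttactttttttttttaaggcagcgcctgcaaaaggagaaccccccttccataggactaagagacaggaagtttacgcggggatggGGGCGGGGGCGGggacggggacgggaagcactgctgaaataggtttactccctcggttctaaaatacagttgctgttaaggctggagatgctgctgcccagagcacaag
Abcg2 start 3, chr6:58640296-58640545, plus strand: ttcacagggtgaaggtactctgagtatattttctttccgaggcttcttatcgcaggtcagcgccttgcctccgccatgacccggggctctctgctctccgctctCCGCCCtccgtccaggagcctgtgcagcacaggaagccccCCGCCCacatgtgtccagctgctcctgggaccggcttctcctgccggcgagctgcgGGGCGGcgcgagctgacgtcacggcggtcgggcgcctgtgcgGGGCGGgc
Abca1, chr4:53159896-53160145, minus strand: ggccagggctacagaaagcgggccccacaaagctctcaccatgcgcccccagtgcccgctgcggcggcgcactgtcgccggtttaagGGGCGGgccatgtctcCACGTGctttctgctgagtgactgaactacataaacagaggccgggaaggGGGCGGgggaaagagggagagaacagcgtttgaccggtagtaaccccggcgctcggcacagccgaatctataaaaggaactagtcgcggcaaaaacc
Abca5, chr11:110337717-110337966, minus strand: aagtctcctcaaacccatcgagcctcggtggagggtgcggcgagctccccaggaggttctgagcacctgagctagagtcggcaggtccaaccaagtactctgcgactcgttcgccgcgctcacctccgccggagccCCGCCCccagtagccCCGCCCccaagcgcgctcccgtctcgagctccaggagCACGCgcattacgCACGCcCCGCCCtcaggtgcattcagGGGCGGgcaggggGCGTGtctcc
Abcb1a, chr5:8566841-8567090, plus strand: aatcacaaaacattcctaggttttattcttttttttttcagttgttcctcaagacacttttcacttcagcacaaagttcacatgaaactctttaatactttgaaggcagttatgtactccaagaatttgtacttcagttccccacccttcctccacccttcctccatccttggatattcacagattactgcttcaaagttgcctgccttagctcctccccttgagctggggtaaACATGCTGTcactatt

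The upstream *Abcg2* window held 0 GC boxes, the second window held 2 side by side, and the third, with a GC content of 67.6%, held 4. The *Abca1* window held 2 GC boxes and 1 E-box, the *Abca5* window 4 GC boxes and 3 xenobiotic response cores, and the *Abcb1a* window 1 steroid receptor repeat. A window was available for 38 of the 50 ABC genes, in 45 windows. A GC box was found in 20 of these (44.4%), against 32.7% of all 32851 RefSeq windows. E-boxes were in 5 windows of ABC genes (11.1%, against 6.02% of all), xenobiotic response cores in 13 (28.9%, against 28.2%) and steroid receptor repeats in 4 (8.89%, against 5.84%). These matches describe letters only. The counts cannot say which start was used, since they are summed per gene, and the RefSeq start of *Abcb1a* lies 92986 bases from the start in the GENCODE annotation.

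Total counts per library lay between 7242717 and 16164588. Over 10 markers of the liver sinusoidal endothelium, among them *Stab2*, *Kdr* and *Clec4g*, the summed level was 26800 to 32820 CPM in CONV-R and 26210 to 36070 CPM in GF libraries, and none was at 0. CPM stands for counts per 1000000 counts of the library, scaled with TMM normalization. Sums over 10 hepatocyte markers were 30.7 to 71.9 and 37.6 to 89.5 CPM, over 8 stellate and mural cell markers 20.6 to 34.1 and 15.5 to 39.4 CPM, over 6 lymphocyte markers 3.00 to 6.90 and 0.762 to 3.70 CPM, and over 4 red cell markers 16.3 to 29.8 and 4.07 to 21.8 CPM. Markers of 2 other cell types were higher in GF. Over 5 bile duct markers the sums were 0.137 to 8.96 CPM in CONV-R and 13.6 to 36.8 CPM in GF libraries, without overlap. Of these 5 markers, 2 had enough counts to be tested, and 1 passed as higher in GF. Markers of Kupffer cells and other macrophages summed to 85.1 to 224 CPM in CONV-R and 193 to 912 CPM in GF libraries, and 6 of 10 passed the test as higher in GF. The library of GF mouse 2 also held counts for 22674 genes, against 15456 to 18495 in the other 10 libraries. In bulk RNA, fewer cells of a type and less RNA per cell cannot be told apart.

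Of the 33 tested ABC genes, 4 passed an adjusted p of 0.05 (12.1%), all higher in GF. Of these 4, *Abca5* had entered the test only through its GF levels, and *Abcb1a* would not have entered on its CONV-R levels alone. Of all 12905 tested genes, 7.48% passed, and 4.80% passed as higher in GF. The count of 4 rests partly on single libraries: it was 2 without CONV-R mouse 2, CONV-R mouse 4 or GF mouse 2, each time with *Abcg2* and *Abca1* among the calls. DESeq2 called 5 of 42 ABC genes (11.9%), the same 4 and *Abcc4*, all higher, against 9.83% of all genes it tested (5.98% higher and 3.85% lower). No ABC gene was called lower by edgeR, where 1, *Abcc5*, was lower at an unadjusted p under 0.05, nor by DESeq2 or voom. Among all genes tested by edgeR 2.67% were called lower. Of the 33 ABC genes, 23 (69.7%) had a log2 fold change (Log2FC, GF relative to CONV-R) above 0, against 49.1% of all tested genes. The median Log2FC was 0.22 over the tested ABC genes and -0.01 over all tested genes. Those ABC genes that could be tested had passed a filter on low counts, so this median leaves out 17 members.

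*Abcg2* lies on the plus strand of chromosome 6 of GRCm38 from 58584523 to 58695676 and has 13 annotated transcripts. In CONV-R ECs its level was lowest at 36.3 CPM, had a median of 50.9 CPM and was highest at 59.7 CPM. In the GF mice numbered 1, 2, 4, 5 and 6 it was 248.3, 186.7, 115.6, 150.1 and 139.2 CPM. The lowest GF level was above the highest CONV-R level, and the spread among GF mice was the wider. The Log2FC was 1.73 with a standard error (SE) of 0.18 (95% interval 1.36 to 2.10), a fold of 3.31, with an edgeR adjusted p of 1.25e-05. A two-sided exact permutation test on log2 CPM over all 462 splits of the mice gave p = 0.00216, the smallest it allows. Leaving out each mouse in turn gave Log2FC values of 1.54 to 1.84. None of the genes next to it was called: on either side, *Lancl2*, *Vopp1*, *Herc3* and *Nap1l5* had a Log2FC of 0.21, -0.04, -0.11 and 0.27 (edgeR adjusted p = 0.509, 0.905, 0.733 and 0.809).

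*Abca1*, the cholesterol exporter, lies on the minus strand of chromosome 4 from 53030787 to 53159895. Its CONV-R levels ran from 61.1 over a median of 94.9 to 132.9 CPM. Its GF levels were 199.1, 223.4, 180.7, 147.5 and 214.7 CPM. The lowest GF mouse was above the highest CONV-R mouse, so the groups did not overlap. The Log2FC was 1.00 (SE 0.16, 95% interval 0.66 to 1.34; edgeR adjusted p = 0.00102), a fold of 2.00, and the exact permutation test gave p = 0.00433. The values without each mouse in turn were 0.90 to 1.11. Of its neighbours, *Slc44a1*, a choline transporter gene, was also higher in GF (306.9 and 422.9 CPM, Log2FC 0.46, edgeR adjusted p = 0.00628), while *Nipsnap3b* and *Fsd1l* had Log2FC values of -0.06 and 0.01.

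*Abca5*, a transporter of lysosomes and late endosomes, lies on the minus strand of chromosome 11 from 110269369 to 110337716. It was weakly expressed, with 26 counts in the 6 CONV-R and 98 in the 5 GF libraries. CONV-R mice had 0 to 0.727 CPM with a median of 0.369 CPM; the library at 0, that of CONV-R mouse 1, allows up to 0.232 CPM (3 counts, counting error only). GF mice had 1.56, 3.48, 0.952, 2.64 and 1.08 CPM, all above the CONV-R mice. The Log2FC was 2.38 (SE 0.61; edgeR adjusted p = 0.0251; exact permutation p = 0.00216), but the edgeR adjusted p was 0.0554, 0.0599 and 0.0735 without CONV-R mouse 2, CONV-R mouse 4 or GF mouse 2. It passed the filter on low counts only through the GF libraries, since no CONV-R library reached the minimum level, so a gene kept in this way had to differ and its place among the calls and the non-overlapping genes is a description. It sits in a row of subfamily A genes. Next to it, *Abca6* was too low to be tested and *Abca9* had a Log2FC of 1.33 (2.96 ± 2.07 and 7.57 ± 3.35 CPM; edgeR adjusted p = 0.112), while on its other side *Map2k6*, a kinase of the p38 pathway, was lower in GF (Log2FC -0.63, edgeR adjusted p = 0.025).

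*Abcb1a*, which with *Abcb1b* encodes the drug pump P-glycoprotein in mice, lies on the plus strand of chromosome 5 from 8660077 to 8748575. CONV-R mice had 0.388 to 3.34 CPM with a median of 1.25 CPM. GF mice had 1.95, 8.69, 3.33, 7.93 and 8.003 CPM. GF mice 1 and 4 lay within the CONV-R range and the other 3 above it. On its CONV-R levels alone the gene would not have passed the filter on low counts. The Log2FC was 1.79 (SE 0.53; edgeR adjusted p = 0.0481; exact permutation p = 0.026), and this call was lost without any one of 7 of the 11 mice, with voom (adjusted p = 0.0684) and with upper-quartile scaling (edgeR adjusted p = 0.0535). Its near-identical neighbour *Abcb1b* had 4.71 ± 1.67 CPM in CONV-R and 4.60 ± 2.44 CPM in GF ECs (Log2FC -0.04, SE 0.36, edgeR adjusted p = 0.966). Reads that fit both copies, and reads of the antisense gene *Gm42686*, which covers 10.1% of the exon length of *Abcb1a*, make its counts uncertain, because the strand setting of the counting is not given.

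**Figure D1:**
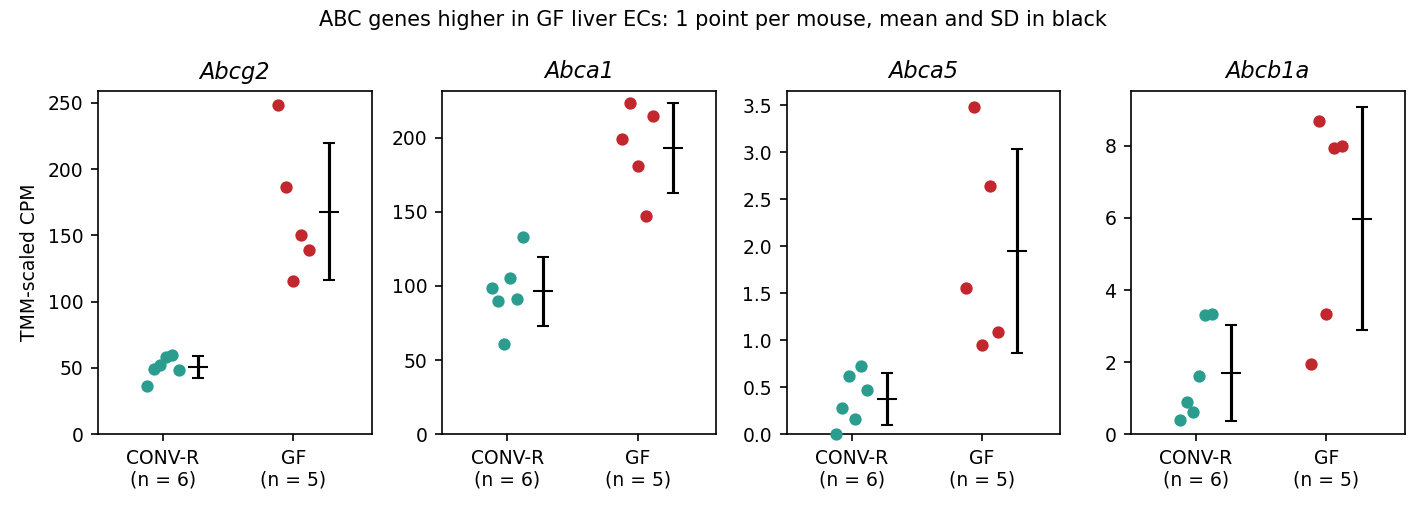
Levels of the 4 ABC genes with an adjusted p under 0.05, in TMM-scaled CPM on linear axes from 0; each point is 1 mouse, and the black bar gives mean and SD of 6 CONV-R or 5 GF mice. GF and CONV-R mice are apart for Abcg2, Abca1 and Abca5 and overlap for Abcb1a.

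The levels of 3 tested ABC genes did not overlap between the groups, namely *Abcg2*, *Abca1* and *Abca5* (9.09% of those tested, against 5.59% of all tested genes and 3.22% with GF above CONV-R). In the authors' own normalized log2 values the mean differences between GF and CONV-R were 1.42 for *Abcg2*, 0.86 for *Abca1*, 1.36 for *Abca5* and 1.35 for *Abcb1a*.

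Among the 9 transporters of drugs and conjugates, all of them tested, *Abcg2* and *Abcb1a* were higher in GF. *Abcc4*, which exports cyclic nucleotides and prostaglandins, had 131 to 183 CPM in CONV-R and 213.3, 185.9, 228.4, 169.2 and 236.0 CPM in GF mice. GF mouse 5 lay inside the CONV-R range and the others above its top. With a Log2FC of 0.39 (SE 0.12) it did not pass edgeR's test (adjusted p = 0.055), but it passed DESeq2 (adjusted p = 0.0323) and edgeR without CONV-R mouse 3 (adjusted p = 0.0299) or GF mouse 5 (adjusted p = 0.0254). *Abcc5*, another exporter of cyclic nucleotides, had the lowest Log2FC among the 33 genes, -0.27 (SE 0.13, edgeR adjusted p = 0.209), with 175.7 ± 19.3 and 145.3 ± 28.3 CPM. *Abcc1*, which exports glutathione conjugates, had 50.2 ± 5.49 and 43.2 ± 7.70 CPM (Log2FC -0.21, 95% interval -0.50 to 0.07, edgeR adjusted p = 0.372). The remaining 4, *Abcb1b*, *Abcc3*, *Abcc10* and the *Abcg2* relative *Abcg3*, had Log2FC values of -0.04, -0.07, -0.09 and 0.70 and did not pass. Over the 9 genes the median Log2FC was -0.04.

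Of the 7 exporters of sterols and phospholipids, 3 were expressed enough to be tested, and *Abca1* was the only call. *Abcg1*, which passes cholesterol to high-density lipoprotein, had 71.3 to 155.6 CPM in CONV-R and 101.7 to 163.7 CPM in GF mice, and the ranges overlapped (Log2FC 0.19, 95% interval -0.19 to 0.57, edgeR adjusted p = 0.570). *Abca7*, a phospholipid transporter, had 106.3 ± 12.3 and 98.6 ± 17.9 CPM (Log2FC -0.11, edgeR adjusted p = 0.676). The other subfamily A carriers of intracellular lipids gave 4 tested genes of 7, with *Abca5* as the 1 call. *Abca3*, known from surfactant granules of the lung, had a Log2FC of 0.42 (64.2 ± 16.5 and 85.8 ± 7.17 CPM, edgeR adjusted p = 0.144), and *Abca2* of 0.22.

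Transporters of the bile-facing membrane were weakly expressed. *Abcb11*, the bile salt export pump, had 26 counts in all 11 libraries together. The sterol exporters *Abcg5* and *Abcg8*, which work as a pair, had 6 and 16 counts, and *Abcb4*, which moves phosphatidylcholine into bile, had 91. *Abcc2*, an exporter of conjugated bilirubin, passed the filter with 1.27 ± 0.69 and 1.38 ± 0.72 CPM (Log2FC 0.15, SE 0.54, edgeR adjusted p = 0.907). Of the 7 genes listed for this membrane and for hepatocytes, edgeR and voom tested 2 and DESeq2 tested 5, and 0 were called by any of them. At an unadjusted p under 0.05 edgeR had 0 and DESeq2 had 1. *Abcc3*, the other tested gene of the list, had 31.8 ± 6.82 and 30.4 ± 6.47 CPM. The other 5 genes had 6 to 91 counts each and did not pass edgeR's filter.

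The mitochondrial members *Abcb10*, which serves heme synthesis, *Abcb6* and *Abcb8* had Log2FC values of 0.14, 0.23 and 0.23, and none of these 3 passed in edgeR, DESeq2 or voom or at an unadjusted edgeR p under 0.05. *Abcb10* was the highest of them, with 18.8 ± 4.95 CPM in CONV-R and 20.8 ± 2.43 CPM in GF ECs. The counts of *Abcb6* are uncertain, since *Gm29253* on the same strand covers 55.2% of its exon length, and antisense genes cover 10.3% of *Abcb10* and 9.75% of *Abca3*. Among the 5 members of peroxisomes and lysosomes, including the fatty acid importer *Abcd2*, 0 passed by edgeR, DESeq2 or voom, and 1, *Abcd2*, named after its value was seen, had an unadjusted edgeR p under 0.05 (0.796 ± 0.397 and 1.92 ± 1.49 CPM, Log2FC 1.22, adjusted p = 0.202). *Abcd3*, a peroxisomal importer, lay within 55.0 to 74.1 CPM in all GF and 60.4 to 66.2 CPM in all CONV-R mice.

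The 4 members without a membrane part were all tested, and 0 passed by edgeR, DESeq2 or voom; *Abcf2*, named after its value was seen, was the 1 with an unadjusted edgeR p under 0.05 (22.1 ± 3.11 and 29.3 ± 7.52 CPM, Log2FC 0.41, adjusted p = 0.177). *Abce1*, which splits ribosomes after translation, had 101.6 to 113.1 CPM in 5 CONV-R mice, 185.5 CPM in CONV-R mouse 3 and 90.0 to 132.1 CPM in GF mice (Log2FC -0.02). *Abcf1*, a factor of translation initiation, had 49.9 ± 5.73 and 58.9 ± 4.50 CPM (Log2FC 0.24, edgeR adjusted p = 0.225).

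*Abcc9*, the regulatory subunit of ATP-sensitive potassium channels known from mural cells, was well expressed, with 79.1 to 124.5 CPM in CONV-R mice. GF mice had 200.8, 159.4, 164.0, 70.3 and 121.0 CPM. GF mouse 5 was the lowest of all 11 mice, while GF mice 1, 2 and 4 were above every CONV-R mouse. The Log2FC was 0.47 (SE 0.20, edgeR adjusted p = 0.161) and 0.64 without GF mouse 5 (edgeR adjusted p = 0.0124). Of the 8 stellate and mural cell markers, *Pdgfrb*, *Des* and *Acta2* each averaged less than 1 CPM in both groups and were at 0 in some libraries. *Rgs5* had 11.1 ± 2.99 and 9.79 ± 6.66 CPM, and the channel partner *Kcnj8* 11.1 ± 4.84 and 13.2 ± 4.02 CPM. The stellate cell marker *Lrat* had 4.92 ± 2.32 and 1.89 ± 1.46 CPM (Log2FC -1.43, edgeR adjusted p = 0.0865) and was called lower by DESeq2 and voom, while *Reln* had 0.711 ± 0.345 and 1.69 ± 1.27 CPM and *Dcn* 0.969 ± 0.567 and 1.39 ± 1.20 CPM. The part of these cells in the *Abcc9* level was not tested. Its relative *Abcc8* had 32 counts in all libraries together and did not pass the edgeR filter.

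**Figure D2:**
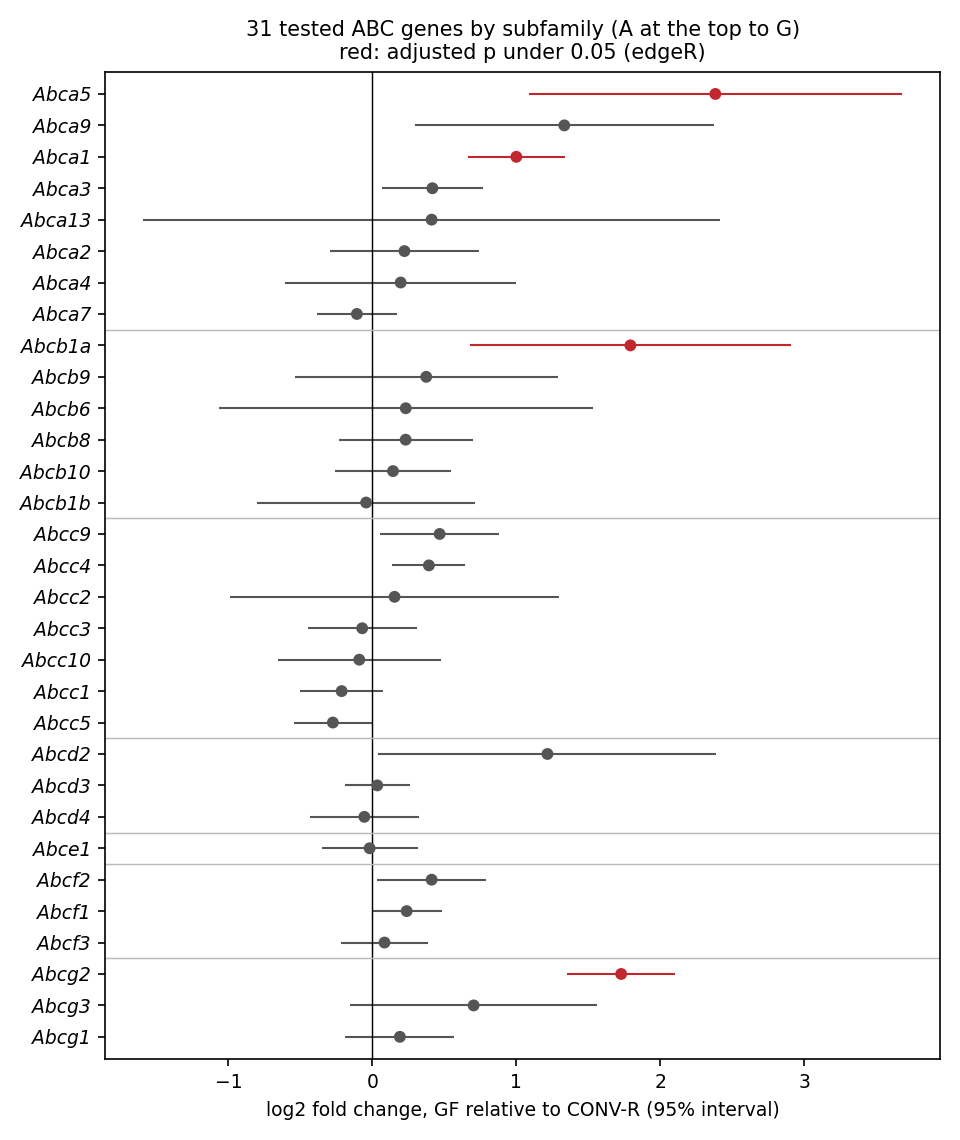
Log2 fold change of GF relative to CONV-R for 31 tested ABC genes, ordered by subfamily from A at the top to G; points are edgeR estimates, bars 95% intervals, and red marks an adjusted p under 0.05. The 4 red genes lie between 1.00 and 2.38, and the other 27 between -0.27 and 1.33.

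By subfamily, A gave 2 calls among 8 tested genes, B 1 of 7, C 0 of 7 by edgeR (2 higher and 1 lower at an unadjusted p under 0.05, and *Abcc4* called by DESeq2), D 0 of 4, E 0 of 1, F 0 of 3 and G 1 of 3. DESeq2 and voom called no gene of D, E or F. The 17 members that did not pass the edgeR filter had 6 to 91 counts in all 11 libraries together. The library of GF mouse 2 had the highest CPM for 13 of them. It held 170 counts over the 17 genes, against 22 to 45 in each of the other libraries.

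Levels of different genes were compared per kb of exon. In CONV-R ECs *Abcc4* stood highest among the ABC genes with 24.6 ± 3.26 CPM per kb, followed by *Abce1* with 19.98 ± 5.39, and these neighbours did not differ beyond their spread. *Abcg2* had 6.22 ± 1.03 CPM per kb and ranked 15 of 50, between *Abca3* (6.85 ± 1.76) and *Abcc3* (5.57 ± 1.20), whose levels lay within its spread. In GF ECs *Abcc4* again stood highest with 32.3 ± 4.43 CPM per kb. *Abcg2* came next with 20.6 ± 6.34 CPM per kb, beside *Abce1* (19.7 ± 2.84), *Abca1* (18.6 ± 2.92), *Abcg1* (17.5 ± 3.21) and *Abcc9* (17.1 ± 5.91), which did not differ from it beyond the spread. *Abca1* ranked 10 in CONV-R and 4 in GF ECs. These levels divide by the length of all annotated exons together, and a gene that uses a short transcript is placed too low.

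All 50 ABC genes together took 1432 ± 30.9 CPM in CONV-R and 1691 ± 139 CPM in GF libraries (here scaled to the library total alone). *Abcg2* made up 3.62% ± 0.68 of these counts in CONV-R and 9.61% ± 2.41 in GF mice, and *Abca1* 6.86% ± 1.67 and 11.1% ± 0.98. *Abcc5* went the other way as a share, with 12.5% ± 1.38 and 8.37% ± 1.40, although its own level did not pass the test. The mean shares of *Abca7* (7.55% and 5.69%), *Abce1* (8.53% and 6.91%) and *Abcg1* (7.93% and 7.39%) were also lower in GF. Those of *Abcc4* (11.2% and 11.9%) and *Abcc9* (7.38% and 8.10%) were higher. A share depends on the total of all members, so it can fall while the gene's own level stays the same.

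Set against single transporters in the same library, *Abcg2* was compared with *Abca1*, *Abcc1*, *Abcb1a* and *Abcg1*, the 4 ratios forming 1 family of tests by two-sided exact permutation with Benjamini-Hochberg adjustment. The log2 ratio of *Abcg2* to *Abcc1* was 0.00 ± 0.30 in CONV-R and 1.92 ± 0.31 in GF mice, a difference of 1.92 with no overlap (exact permutation p = 0.00216, adjusted 0.00866). The ratio to *Abcg1* was higher in GF by 1.47 (CONV-R -1.11 ± 0.65, GF 0.36 ± 0.60; exact permutation p = 0.00866, adjusted 0.0173), with GF mouse 4 inside the CONV-R range. The ratio to *Abca1* was -0.91 ± 0.48 in CONV-R and -0.24 ± 0.42 in GF mice. This difference of 0.67 missed the threshold after adjustment (exact permutation p = 0.0455, adjusted 0.0606), and passed it without CONV-R mouse 3 (difference 0.81, adjusted exact permutation p = 0.0317). The ratio to *Abcb1a* was 5.26 ± 1.08 and 4.96 ± 1.18 and differed by -0.30 (exact permutation p = 0.660); its groups overlapped, and the sign of this difference turned to 0.17 without GF mice 2 and 6 and to 0.07 in the authors' normalized values.

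**Figure D3:**
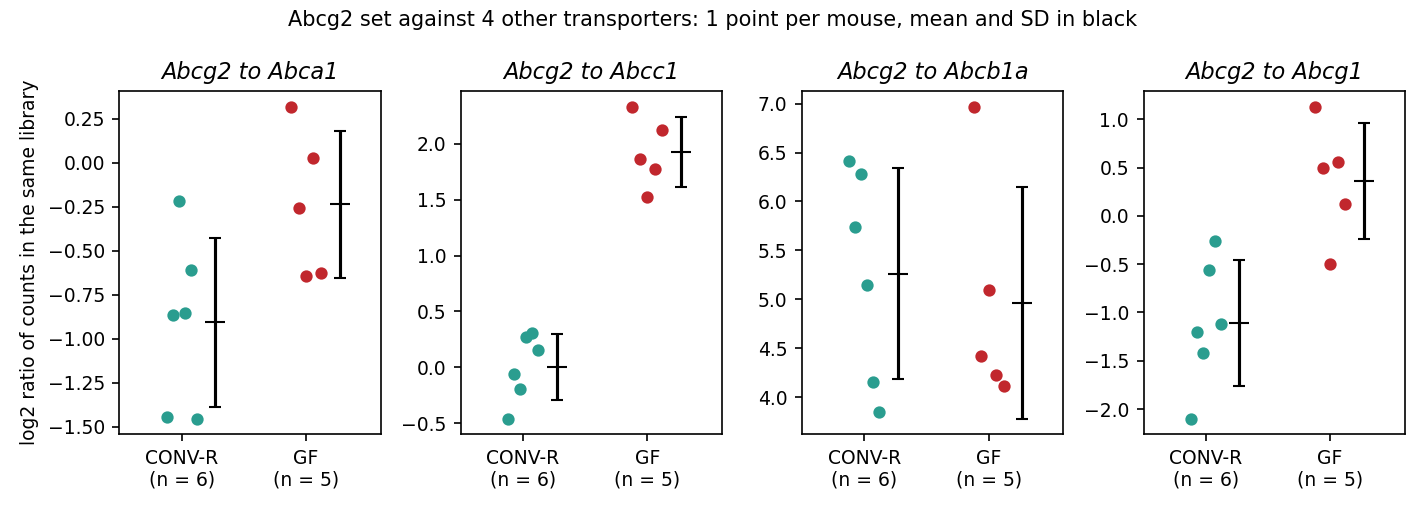
Log2 ratio of Abcg2 counts to the counts of Abca1, Abcc1, Abcb1a and Abcg1 in the same library; each point is 1 mouse, black bars are mean and SD of 6 CONV-R or 5 GF mice, and each panel has its own linear axis. The ratio to Abcc1 separates the groups, and the ratio to Abcb1a does not.

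Macrophage markers moved with the same groups and are set beside the 4 calls. All 10 had a Log2FC above 0 and 6 of 10 passed (*Clec4f*, *Vsig4*, *Adgre1*, *Csf1r*, *Timd4* and *C1qb*, between 1.31 and 1.97). None of the 10 was at 0 in every library, and *C1qa* was at 0 in 1 of the 11. GF mouse 6 had the highest sum, 912 CPM, and the second lowest *Abcg2* level of the GF mice, while *Abca1* was highest in GF mice 2 and 6, which had the highest sums. GF mouse 4, with 193 CPM of macrophage markers, lay below CONV-R mice 1 and 6 (224 and 196 CPM), while its *Abcg2* (115.6 CPM) and *Abca1* (180.7 CPM) were above every CONV-R mouse. Without GF mice 2 and 6, 9 of the 10 markers still had a Log2FC above 0, with a median of 0.66 against 1.54 with all mice, and sums of 193 to 280 CPM in the 3 GF mice left. With fewer mice, 0 of the 10 passed edgeR's adjusted test, 4 had an unadjusted p under 0.05, and calls over all tested genes went from 965 to 428. In the same comparison *Abcg2* had a Log2FC of 1.76 (edgeR adjusted p = 2.88e-04) and *Abca1* of 0.86 (edgeR adjusted p = 0.0221), and neither *Abca5* (2.19, edgeR adjusted p = 0.115) nor *Abcb1a* (1.34, edgeR adjusted p = 0.285) passed. The part of macrophage RNA in the levels of *Abcg2*, *Abca1*, *Abca5*, *Abcb1a* and *Abca9* was not tested. Of the 5 bile duct markers, *Spp1* was called (Log2FC 2.50, edgeR adjusted p = 0.0161) and *Krt19*, *Krt7*, *Epcam* and *Sox9* were at 0 in some libraries; their part in the ABC levels was not tested.

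**Figure D4:**
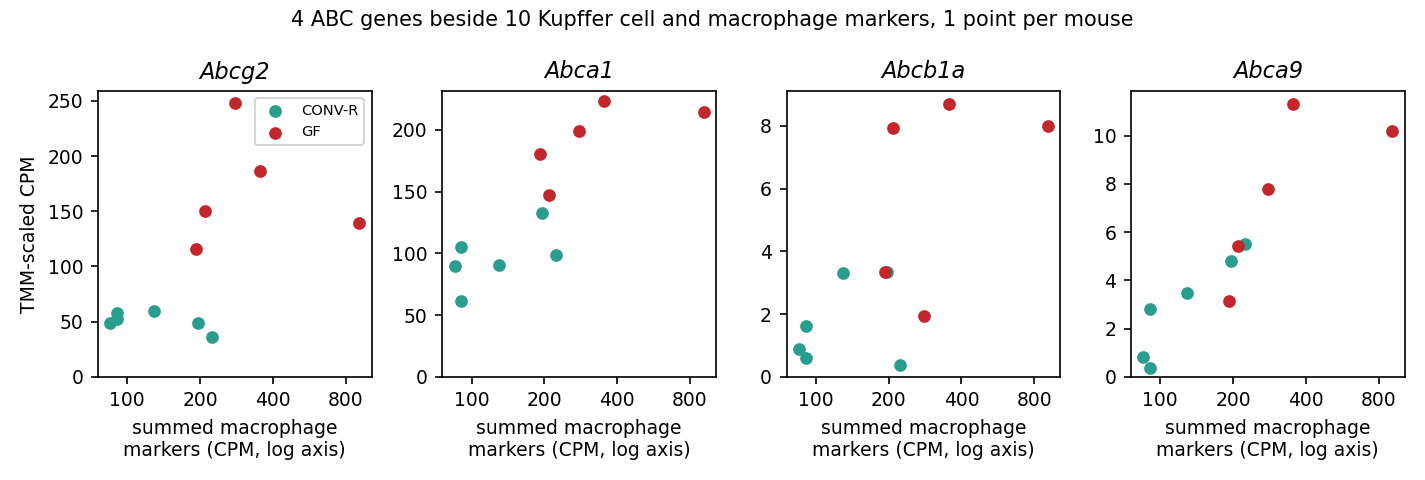
Level of Abcg2, Abca1, Abcb1a and Abca9 (TMM-scaled CPM, linear axes from 0) against the summed CPM of 10 Kupffer cell and macrophage markers (log axis), 1 point per mouse for 6 CONV-R and 5 GF mice. In GF mouse 4 (193 CPM of markers) Abcg2 and Abca1 exceed every CONV-R mouse, while Abcb1a (3.33 CPM) and Abca9 (3.14 CPM) lie within the CONV-R range.

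Genes that work with the ABC exporters were compared from lists of related genes. Of 18 partners of cholesterol efflux, 2 were higher in GF. *Mylip*, which encodes a ubiquitin ligase, had 223.7 ± 38.5 and 402.5 ± 56.3 CPM (Log2FC 0.85, SE 0.13, edgeR adjusted p = 6.04e-04). *Lipa*, which frees cholesterol from its esters in lysosomes, had a Log2FC of 1.08. DESeq2, voom and the comparison without GF mice 2 and 6 also called both. *Apoe* and *Scarb1*, the latter a receptor for high-density lipoprotein, had Log2FC values of 0.44 and 0.38 and did not pass (edgeR adjusted p = 0.292 and 0.0746).

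Of 20 transcription factors known to regulate ABC genes, 17 were tested and 0 passed edgeR's test, with 2 higher at an unadjusted p under 0.05. DESeq2 called 2 of 18, *Pparg* and *Rxrb*, and voom called *Rxrb*; both are named after their values were seen, with a Log2FC of 0.94 and 0.54 in edgeR (adjusted p = 0.0544 and 0.0535). The liver X receptors *Nr1h2* and *Nr1h3*, sterol sensors that drive *Abca1*, had Log2FC values of -0.08 and 0.83 (edgeR adjusted p = 0.867 and 0.261), and the aryl hydrocarbon receptor *Ahr* had -0.21 (edgeR adjusted p = 0.624). Of 7 genes of heme handling in the table, 0 passed by edgeR, DESeq2 or voom, also at an unadjusted edgeR p under 0.05.

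*Spns2*, the sphingosine-1-phosphate exporter of endothelium, had 110.7 ± 23.3 CPM in CONV-R and 113.8 ± 42.7 CPM in GF ECs (Log2FC 0.04, SE 0.21, edgeR adjusted p = 0.937), and *Mfsd2b*, the exporter of red cells, had a Log2FC of -0.56 (SE 0.41, edgeR adjusted p = 0.443). ABC proteins with other symbols were listed apart. *Tap1* and *Tap2*, the peptide transporter for antigen presentation, had Log2FC values of 0.37 (edgeR adjusted p = 0.190) and 0.12 (edgeR adjusted p = 0.774), and *Cftr*, the chloride channel, had at most 1.11 CPM and did not pass the edgeR filter.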

How the data were processed

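RNA-seq libraries of sorted liver ECs from 6 CONV-R and 5 GF mice were compared. From trimmed reads aligned to GRCm38 by STAR, and after leaving out 1 GF library with few mapped reads, the authors deposited raw counts per gene from featureCounts and DESeq-normalized values on a log2 scale; the annotation release and strand setting are not given in the sources used here. Gene positions and exon lengths came from GENCODE M21 (29081 of 29307 genes matched by identifier), and promoter sequences from RefSeq on GRCm38.

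Counts were filtered with filterByExpr, scaled by TMM and compared with the quasi-likelihood test of edgeR 4.0.16 under R 4.3.3, without covariates and with Benjamini-Hochberg adjustment over 12905 tested genes and a threshold of 0.05. Single values per mouse were compared by two-sided exact permutation over 462 splits, with 0.5 added to both counts of a ratio. Values are mean ± SD over mice. DESeq2 1.42.0, voom of limma 3.58.1, other scalings and filters, a replicate block and leaving out mice were alternatives. Leaving out GF mice 2 and 6 together, and fitting the block's libraries without it, were chosen after seeing the data. The edgeR step was tested on simulated data.

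The members and all gene lists were chosen with earlier results of these data known. Named were *Abcg2*, members passing the test in edgeR, or only in DESeq2, without the filter or under the block, 4 comparison transporters, the 10 members with the highest CPM per kb, hepatocyte and mural cell members, members with an outlying mouse, called genes of the related lists, and 5 further transporters. The remaining members appear within their role groups, and *Apoe*, *Scarb1*, *Nr1h2*, *Nr1h3*, *Ahr*, *Abca3* and the neighbouring genes were named after their values were seen. Results of a few genes are not reported here. The total of 7242717 to 16164588 counts per library limits weakly expressed members.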

Additional observations from a re-analysis of the deposited data

Results flagged for a closer look

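In 3 cases a single mouse stood apart from the other mice of its group by Dixon's test for outlying values, which chance alone passes in about 1 of 20 groups. Whether 3 cases exceed what chance gives over all groups screened was not tested. *Abca4*, a retinoid lipid transporter of the retina, had 4.67 CPM in CONV-R mouse 3 against 2.75 to 3.35 CPM in the other CONV-R mice. It also had 8.99 CPM in GF mouse 5 against 2.17 to 3.67 CPM in the other GF mice. *Abce1* had 185.5 CPM in CONV-R mouse 3 against 101.6 to 113.1 CPM in the other CONV-R mice.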

How the results depend on the processing

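*Abcg2* and *Abca1* kept their direction and an adjusted p under 0.05 under every alternative run. The number of ABC genes called was 2 with at least 10 counts in every library and 2 without GF mice 2 and 6, and 2 to 6 when 1 mouse was left out, all higher and 0 lower. Over all tested genes, DESeq2 called 1527 (598 lower). Without GF mice 2 and 6, 428 genes were called, 285 higher and 143 lower. Leaving out 1 mouse gave 622 to 1260 genes, 413 to 779 higher and 206 to 481 lower. Non-overlapping ABC genes numbered 2 with at least 10 counts in every library (5.92% of all tested genes did not overlap), 4 without GF mice 2 and 6 (9.31%) and 3 to 5 when 1 mouse was left out (6.07% to 9.67%). The difference in the log2 ratio of *Abcg2* to *Abca1* was 0.53 to 0.81 when 1 mouse was left out, and that to *Abcb1a* turned from -0.30 to 0.069 in the authors' normalized values and to 0.17 without GF mice 2 and 6. The cause was not tested. Without the filter, *Abca9* also passed (edgeR adjusted p = 0.0397). For 14 other named ABC genes, 259 of 290 values under alternatives kept direction and side of the threshold, 15 lost the call, 7 gained it and 9 changed sign, in 3 genes, none of them called. *Abce1* changed to 0.0045 with voom, 0.13 with the block and 0.14 with the block's libraries alone, and was -0.066 to 0.14 when 1 mouse was left out. The corresponding ranges were -0.081 to 0.40 for *Abcc2* and -0.35 to 0.35 for *Abca4*. *Abca4* changed to -0.055 with voom.

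Replicate numbers are shared by 5 mice of each group, which are different animals. Deviations of same-numbered mice correlated by -0.01 to 0.20, and 2 of 5 pairs correlated best with their own number, so the numbers were not taken to pair the mice. With the replicate block, 5 ABC genes and 1101 of all tested genes were called; *Abcc4* was added (Log2FC 0.44, edgeR adjusted p = 0.0412), and it also passed with the same libraries without the block (edgeR adjusted p = 0.0299). *Abcg2* had a Log2FC of 1.70 in the block.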
